A study of Mus musculus with 8 samples.

Results

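Methylated regions that separate adult enterocytes from the epithelium of the embryonic small intestine at E14.5 were described from peak lists. A peak is an interval in which DNA fragments caught by a methyl-CpG-binding domain (MBD) protein are enriched. The comparison uses 4 of the 8 libraries of the series, 2 of enterocytes and 2 of E14.5 epithelium. Members were chosen by presence alone. Each list was restricted to autosomes and to its 84990 highest-scoring peaks, the length of the shortest list of the series, and peaks that shared at least 1 bp were merged into regions. A region was called enterocyte-only when both enterocyte lists and neither E14.5 list had a peak in it, and E14.5-only in the reverse case. Of 157011 merged regions, 16834 met the rule, 9537 enterocyte-only and 7297 E14.5-only.

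DNA methylation in mammals sits mostly on cytosines of CpG dinucleotides, is copied at cell division and is largely rewritten in the early embryo. In the intestine it is set and removed at enhancers and promoters as the gut tube matures and as crypt stem cells give rise to absorptive enterocytes of the villus. MBD capture favours fragments that carry many methylated CpGs, so a peak marks densely methylated DNA relative to the rest of its own library and gives no percent methylation.

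All mice were of a mixed C57BL/6 CD1 strain. Enterocytes came from the small intestine of Lgr5EGFP-Cre-ERT males at P60 (postnatal day 60) and were sorted as EpCAM+CD31−CD45−DAPI−, that is, live epithelial cells without endothelial or leukocyte markers. The E14.5 cells, where E stands for embryonic day, came from dissected small intestine with the same gate, and the sex of the embryos is not given in the sources used here. The gate holds no marker of the absorptive lineage, and the labels' protocols do not state whether the sorted enterocytes were taken from the villus or the crypt fraction, so other EpCAM+ lineages were not removed by it. Neither do they state how many animals were pooled per library. Looked up as further samples were intestinal stem cells (ISC), sorted as Lgr5-EGFPhigh from the same adult males, and EpCAM+ epithelium of E12.5 embryos, with 2 libraries each. Cell identity cannot be checked against markers in peak lists of methylated DNA, and no gene is assigned to a region because no annotation of the peaks' build, mm9, was at hand.

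The series describes its libraries as biological duplicates. The 4 libraries held 34567645 to 43343543 sequenced tags, and their autosomal lists differed more than their depth. Enterocyte replicates 1 and 2 had 163882 and 231707 peaks, and E14.5 replicates 1 and 2 had 314082 and 336963. The rule therefore kept 51.9% and 36.7% of the enterocyte lists and 27.1% and 25.2% of the E14.5 lists. Kept peaks also differed in length, with medians of 1008 and 802 bp in enterocytes and of 629 and 384 bp at E14.5. The score of the last kept peak, which rises as the caller's p-value falls, equalled that of the first peak left out in each of the 4 lists, at 79.62, 99.77, 112.98 and 115.76. With 2 libraries against 2 an exact two-sided permutation test cannot fall below p = 0.333, so presence is given as counts without a test. Where a list has no peak, its library had too few tags for the caller's cutoff, which does not show that methylation was absent.

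The comparison sets adult epithelial cells labelled as enterocytes against fetal epithelium. In the equal lists, the 9537 enterocyte-only regions were 6.07% of all merged regions and 17.0% of the 55943 called in both enterocyte libraries. The 7297 E14.5-only regions were 4.65% of all merged regions and 15.7% of the 46465 called in both E14.5 libraries. Most regions called in a group were thus called in at least 1 library of the other, and 29354 were called in all 4. Enterocyte-only regions made up 56.7% of those separating the groups (95% Wilson interval 55.9% to 57.4%). The interval covers counting error only. It treats regions as independent, though they share the 4 libraries, and does not measure the spread between libraries. Without E14.5 replicate 1 or 2 the enterocyte share was 42.3% or 40.3%, and without enterocyte replicate 1 or 2 it was 66.1% or 65.9%. A group left with 1 list meets the rule more easily, which moves the share toward that group by construction. With any 1 of the 4 libraries left out 15525 to 24400 regions were enterocyte-only and 11928 to 28110 E14.5-only.

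The full lists gave the opposite balance. They merged into 425002 regions, of which 6033 were enterocyte-only (1.42%) and 47061 E14.5-only (11.1%). The first are 4.59% of the regions called in both enterocyte libraries, the second 22.7% of those called in both E14.5 libraries, and the enterocyte share fell to 11.4%. Both E14.5 lists are longer than both enterocyte lists, and list length and group cannot be told apart in these counts. E14.5-only regions of the full lists had a median length of 407 bp against 792 bp for enterocyte-only ones. All autosomal peaks differed in the same direction, with medians of 451 and 272 bp at E14.5 and of 849 and 615 bp in enterocytes.

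Looked up in the full lists, most members were not empty in the other group. Among the 9537 enterocyte-only regions, 6221 (65.2%) had a peak below the cut in both E14.5 lists, 2348 (24.6%) in 1 of them and 968 (10.1%) in neither. The score cuts were 112.98 and 115.76 at E14.5 and 79.62 and 99.77 in enterocytes. An E14.5 peak below its cut can therefore score higher than a kept enterocyte peak. Of the 7297 E14.5-only regions, 3195 (43.8%) had a peak below the cut in both enterocyte lists, 2808 (38.5%) in 1 and 1294 (17.7%) in neither. Among those 2808, the single peak was in enterocyte replicate 2, the longer list, for 2203 regions and in replicate 1 for 605.

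**Figure D1:**
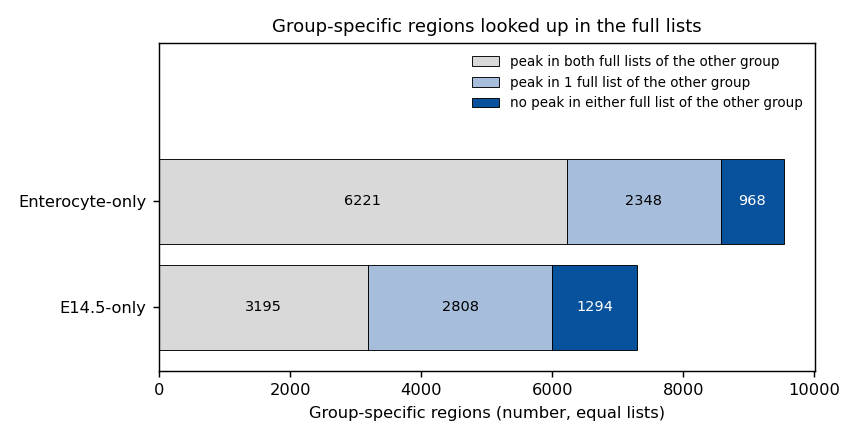
Number of enterocyte-only and E14.5-only regions of the equal lists (x axis), divided by whether the full lists of the other group held a peak in both, 1 or neither of its libraries. The darkest segments, 968 and 1294 regions, are those without any peak in the other group.

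The first class had a peak in every full list of both groups. In the 6221 regions the median tag count was 75 and 70 in enterocyte replicates 1 and 2. It was 40 and 29 in E14.5 replicates 1 and 2. Called peaks were also longer in enterocytes, with medians of 1079 and 912 bp against 551 and 320 bp at E14.5. The part of length in the tag counts was not tested. In the 3195 regions with a peak in every library, the E14.5 medians were 46 and 40 tags and those of the deeper enterocyte libraries 45 and 39. Median called lengths there were 540 and 367 bp at E14.5 and 755 and 593 bp in enterocytes. The median score percentiles within their own autosomal lists, 83.1 and 86.6 at E14.5 and 28.8 and 46.4 in enterocytes, differ because the rule chose regions by score. The median fold enrichment over local background, the authors' value per peak, was higher at E14.5 in both sets. It was 6.13 and 7.52 against 4.83 and 5.92 in enterocytes for the 6221 regions, and 7.81 and 9.40 against 4.47 and 5.31 for the 3195. Fold was also higher at E14.5 over all peaks kept, at 7.80 and 9.40 against 5.18 and 6.40, so its direction does not mark these regions.

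The second class, without a peak even in the full lists of the other group, is called strictly enterocyte-only (968 regions, 0.617% of all merged regions) and strictly E14.5-only (1294 regions, 0.824%) here. With any 1 library left out these were 2332 to 3482 and 2466 to 7686 regions. Their peaks were of ordinary strength for the members. Strictly enterocyte-only regions had median tag counts of 65 and 64 and a median region length of 978.5 bp, and strictly E14.5-only regions had 44 and 38 tags and 532.5 bp. The nearest peak of the other group was usually close. It lay at a median of 1552 bp from strictly enterocyte-only regions, within 1 kb for 322 of them (33.3%) and beyond 5 kb for 108. For strictly E14.5-only regions the median was 2167.5 bp, with 340 (26.3%) within 1 kb and 246 beyond 5 kb.

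ISC libraries were not used by the rule, and show how the members stand in the adult stem cell. In the equal lists, 2804 enterocyte-only regions (29.4%) were called in both ISC libraries, and 1119 E14.5-only regions (15.3%). Over all regions called in both libraries of a group 33574 of 55943 were so called for enterocytes and 27146 of 46465 (58.4%) for E14.5. In the full lists, 72.5% of enterocyte-only and 61.3% of E14.5-only regions were called in both ISC libraries, and 2.95% and 8.89% in neither. Over all called regions the share in both was 87.9% and 86.6%. Members were called in ISC less often than all called regions at each strength too. In the strongest of 4 equal classes by score, 60.5% of enterocyte-only and 26.7% of E14.5-only regions were in both equal ISC lists, against 87.1% and 86.4% of all called regions. In the weakest class the enterocyte-only share was 20.6% against 38.5%. The members were chosen for lacking peaks in another group, and the part of that choice in the gap was not tested.

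The order of the 2 equal-list shares turned when an enterocyte library was left out. The share was higher for enterocyte-only regions in 12 of the 14 settings computed, but 17.9% against 22.9% without enterocyte replicate 1 and 16.2% against 25.6% without enterocyte replicate 2. For regions specific in the full lists it was 37.9% of the 6033 against 16.6% of the 47061, beside 71.5% and 54.5% of all regions called in the group.

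Strict members differed more. Of the 968 strictly enterocyte-only regions, 636 (65.7%) had a peak in both full ISC lists and 50 (5.17%) in neither. Of the 1294 strictly E14.5-only regions, 406 (31.4%) had a peak in both and 450 (34.8%) in neither. By library, ISC replicates 1 and 2 had a peak in 71.1% and 89.5% of the first and in 40.3% and 56.3% of the second. Both strict sets were below all regions called in both libraries of their group. Of those, 87.9% (enterocytes) and 86.6% (E14.5) were in both ISC lists, and 0.763% and 1.66% in neither. Leaving out enterocyte replicate 1 brought the strict shares in both ISC lists to 47.9% and 47.0%. Leaving out enterocyte replicate 2 turned their order, to 42.1% against 58.8%. The shares in neither ISC list were then 14.4% and 20.2% without replicate 1 and 20.4% and 11.7% without replicate 2.

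The E12.5 libraries, the other embryonic stage, showed the reverse order. At least 1 full E12.5 list had a peak in 150 strictly enterocyte-only regions (15.5%) and in 720 strictly E14.5-only regions (55.6%). That order turned without E14.5 replicate 1, at 40.9% against 30.5%, and held without E14.5 replicate 2, at 29.9% against 39.4%. The E12.5 lists are short, 100117 and 84801 autosomal peaks, and over all regions called in both libraries of a group 27.6% (enterocytes) and 24.4% (E14.5) had no E12.5 peak. The most frequent pattern among strictly enterocyte-only regions was a peak in both ISC lists and in no E12.5 list, which held for 559 of 968 (57.7%). No pattern was as frequent among strictly E14.5-only regions. There, 217 (16.8%) were called in 1 ISC list and no E12.5 list, 191 (14.8%) in both ISC lists and no E12.5 list, 168 (13.0%) in 1 E12.5 list and no ISC list, 116 (8.96%) in both E12.5 lists and no ISC list, 82 (6.34%) in all 4 of these lists and 166 (12.8%) in none.

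**Figure D2:**
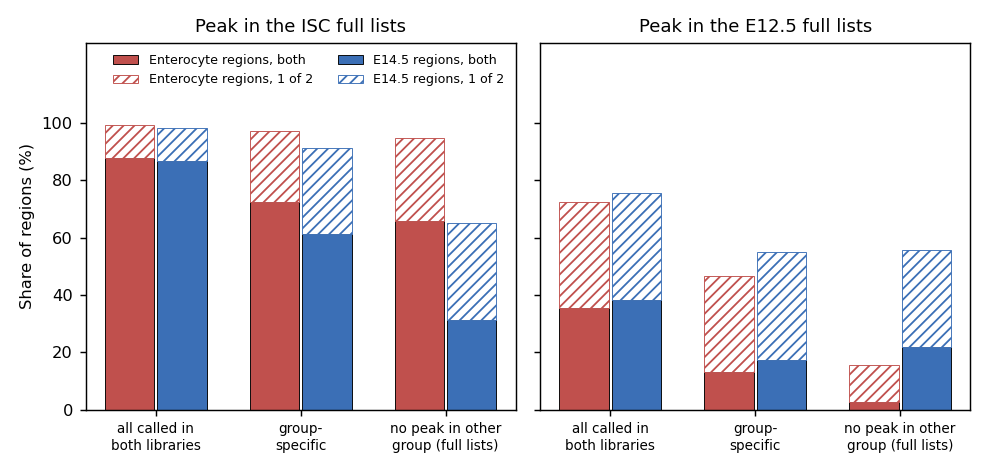
Share of regions (y axis, percent) with a peak in the full ISC lists (left) and E12.5 lists (right), for all regions called in both libraries of a group, for its group-specific regions and for those without any peak in the other group. Filled bars are regions called in both libraries, hatched bars those called in 1. In the last category ISC peaks in both libraries cover 65.7% of enterocyte and 31.4% of E14.5 regions.

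Peak strength was taken into account by dividing the regions called in both libraries of a group into 4 classes of equal size by the lower of their 2 score percentiles. Group-specific regions thinned out with strength, from 29.0% of the weakest to 4.98% of the strongest enterocyte class and from 30.3% to 2.61% at E14.5. In the strongest class 111 strictly enterocyte-only regions remained. Of these, 89.2% were called in both ISC lists, below the 97.3% of all enterocyte regions of that class. An E12.5 list held 2.70% of them (3 regions), against 86.3% of all enterocyte regions of that class. Of the 95 strictly E14.5-only regions of the strongest class, 89.5% were in an E12.5 list, near the 90.8% of all E14.5 regions of that class. In neither ISC list were 49.5% of them, against 0.491% of all E14.5 regions of that class.

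Single libraries moved the size of these shares. Without E14.5 replicate 1 or 2, E12.5 peaks were found in 35.5% or 17.2% of the strict enterocyte regions of the strongest class and in 62.4% or 75.7% of the E14.5 ones. Without enterocyte replicate 1 or 2 the first share was 5.65% or 11.0%, and 32.2% or 18.2% of the strict E14.5 regions of that class were in neither ISC list. The share with an E12.5 peak was higher for E14.5 than for enterocyte regions of that class in each of the 4 fits that left out 1 library.

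**Figure D3:**
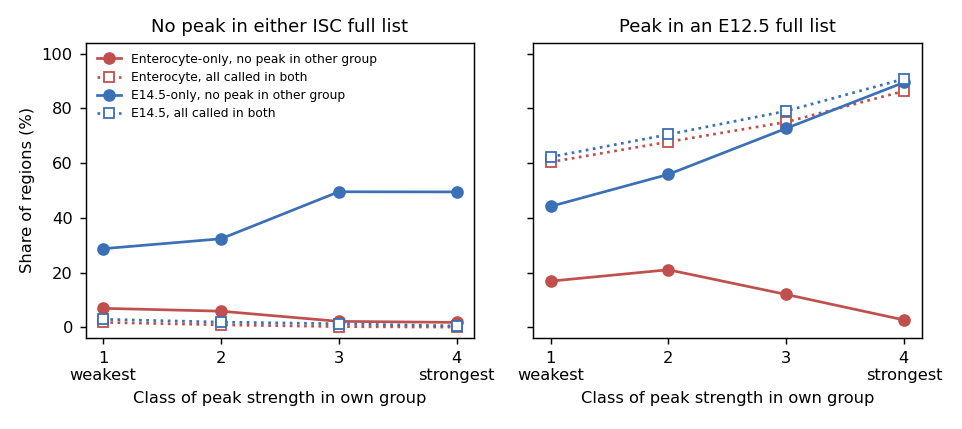
Share of regions (y axis, percent) without a peak in either full ISC list (left) and with a peak in a full E12.5 list (right), by class of peak strength in the region's own group (x axis, from 1, weakest, to 4, strongest). Solid lines are regions without any peak in the other group, dotted lines all regions called in both libraries. In the strongest class the solid enterocyte line is at 2.70% for E12.5 and the solid E14.5 line at 89.5%.

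Regions are named by rank, as the 8 strict regions per direction with the highest score percentile in both libraries of the group. Positions are in mm9, and tags are summed over the peaks of a library in the region. All 8 enterocyte regions were called in both ISC lists and in no E12.5 list. They are close to the strict enterocyte regions of the strongest class in this. Of those, 89.2% were in both ISC lists and 2.70% in an E12.5 list. The first lies on chromosome 12 at 58649136 to 58652359 and held 288 and 344 tags in enterocytes and 176 and 230 in ISC, with the nearest E14.5 peak 7025 bp away. Region 4, on chromosome 7 at 137403658 to 137406955, held 278 and 302 tags in enterocytes and 183 and 233 in ISC, and the nearest E14.5 peak was 3438 bp away. Both are long peaks. The rule required a peak in both enterocyte libraries, so only the ISC and E12.5 calls were free to differ.

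Shorter regions followed the same pattern with closer embryonic peaks. On chromosome 2, from 130459775 to 130461269, there were 127 and 110 tags in enterocytes and 55 and 97 in ISC, yet an E14.5 peak lay 301 bp from it. That on chromosome 13 at 49110746 to 49112085 held 117 and 112 tags in enterocytes, 42 and 98 in ISC, and had its nearest E14.5 peak at 2145 bp. On chromosome 17, at 30252789 to 30254558, enterocytes held 144 and 147 tags and ISC 72 and 135, with an E14.5 peak at 1960 bp. The 2 enterocyte libraries were close to each other in each of these, while ISC replicate 1 was below ISC replicate 2.

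The other 3 regions are on chromosome 13 at 55926137 to 55928596, on chromosome 2 at 129024986 to 129026530 and on chromosome 3 at 86349869 to 86352577. Their nearest E14.5 peaks lay 1777, 1679 and 3555 bp away. Scaled to the library total (RPM), ISC replicate 1 was below both enterocyte libraries in all 8 regions, and ISC replicate 2 was above enterocyte replicate 1 in all 8. The regions thus showed no common order of enterocytes and ISC. A region chosen after its values were seen had fewer ISC tags: on chromosome 6 at 87333252 to 87334984, enterocytes held 141 and 142 tags (3.25 and 3.63 RPM) and ISC 20 and 69 (0.617 and 2.19 RPM). E14.5 peaks lay 371 and 428 bp from it.

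The 8 E14.5 regions were less uniform, with 4 called in both ISC lists, 2 in 1 and 2 in neither. In E12.5, 4 were called in both lists, 2 in 1 and 2 in neither. Of all strict E14.5 regions of the strongest class, 29.5% were in both ISC lists and 49.5% in neither. An E12.5 list held 89.5% of that class. Of the 8, 4 came from one place. The regions on chromosome 11 at 3036177 to 3037981, 3049209 to 3051295, 3055584 to 3059208 and 3076305 to 3080232 lie in 1 window of 100 kb (3000001 to 3100000) where tags piled up in most libraries. They held 827 to 1677 tags in E14.5 replicate 1 and 929 to 1820 in replicate 2, and an enterocyte peak lay 226 bp from the second of them. Those starting at 3049209, 3055584 and 3076305 were in both ISC lists. The 2 named regions without an E12.5 peak were those at 3049209 and 3055584, so much of the mixed pattern came from this window.

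Peaks in that window summed to 57.4 RPM in enterocyte replicate 1 and 303 RPM in replicate 2, against 497 and 511 at E14.5, 522 and 440 in ISC and 351 and 286 in E12.5. Enterocyte replicate 1 stood apart from the other 7 libraries, including its own replicate. Peaks were called without a control library, and the part of copy number or repeats in this window was not tested. Without its 7 strict regions, 1287 strictly E14.5-only regions remained and 31.2% of them were in both ISC lists, close to the 31.4% with them.

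Outside that window, the leading E14.5 region lies on chromosome 4 at 45815146 to 45816926. It held 215 and 241 tags at E14.5 and 161 and 36 at E12.5, had no adult peak and was 1839 bp from the nearest enterocyte peak. The region on chromosome 17 at 14509057 to 14510239 showed the same pattern, with 123 and 126 tags at E14.5 and 81 and 64 at E12.5. Both were thus called in the 4 embryonic libraries and in no adult one. The rule fixed the E14.5 peaks and the lack of enterocyte peaks, so only the E12.5 and ISC calls were free to differ.

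Other leading regions kept a peak in the stem cells. On chromosome 5 at 114439105 to 114440325, E14.5 held 102 and 118 tags, E12.5 114 and 90, and ISC 27 and 56, with no enterocyte peak within 4133 bp. On chromosome 6 at 135509660 to 135510366, E14.5 held 77 and 74 tags (fold enrichment 10.04 and 12.22), and 1 library each of ISC (23 tags) and E12.5 (47 tags) had a peak. A region on chromosome 10 at 21190209 to 21190952, chosen after its values were seen, held 73 tags in each E14.5 library, 72 and 57 at E12.5 and 22 and 40 in ISC. In the regions on chromosomes 5 and 10 the ISC replicates had lower scaled counts, at 0.833 and 1.78 RPM and at 0.679 and 1.27 RPM, than E14.5, at 2.95 and 3.38 RPM and at 2.11 and 2.09 RPM.

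**Figure D4:**
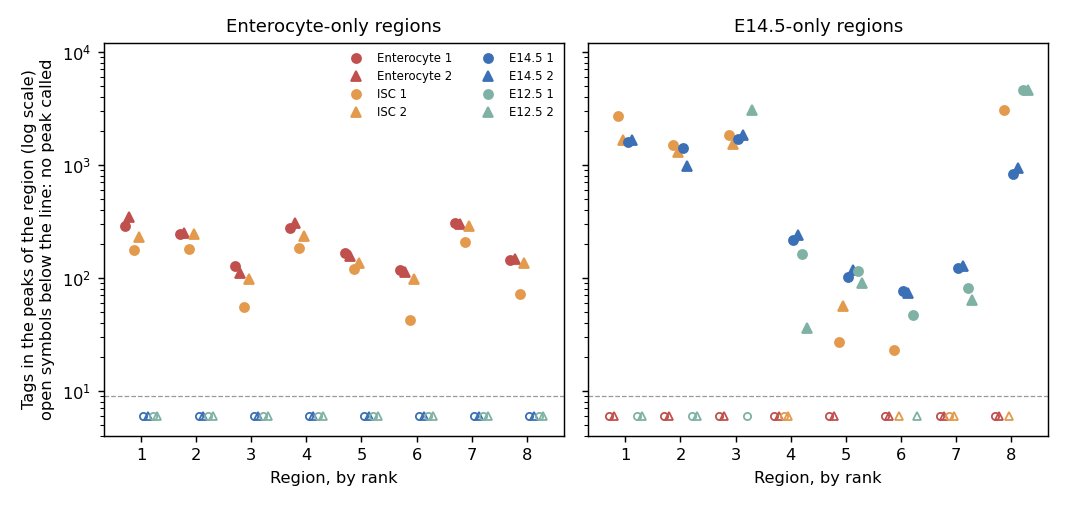
Tags in the peaks of each library (y axis, log scale) for the 8 named enterocyte-only (left) and E14.5-only (right) regions in order of rank (x axis). Open symbols below the dashed line mark libraries without a peak. All 8 enterocyte regions have ISC peaks and no E12.5 peak, and 4 of the E14.5 regions, those above 800 tags, lie in 1 window of chromosome 11. Of all strict enterocyte regions of the strongest class, 89.2% were in both ISC lists and 2.70% in an E12.5 list.

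Members were spread over the 19 autosomes. Enterocyte-only regions were 15.5% (chromosome 15) to 18.6% (chromosome 14) of the enterocyte regions of a chromosome, and E14.5-only regions 13.8% (chromosome 16) to 17.5% (chromosome 11) of the E14.5 ones. Strict regions were mostly solitary. Of 913 windows of 100 kb with a strictly enterocyte-only region, 863 held 1, and of 1226 windows with a strictly E14.5-only region, 1166 held 1. Windows with 3 strict enterocyte regions started at 138800001 on chromosome 1, 59900001 on chromosome 11, 21300001 and 23500001 on chromosome 13 and 17700001 on chromosome 2. In the window at 23500001 on chromosome 13, 6 of the 7 regions called in enterocytes were enterocyte-only. For E14.5, windows with 3 strict regions started at 95800001 on chromosome 3, 120400001 on chromosome 7 and 33700001 on chromosome 16. In that on chromosome 7, all 3 regions called at E14.5 were strict.

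The 29354 regions called in all 4 libraries have a tag count in each and are not group-specific. Their counts were tested between groups (edgeR's quasi-likelihood test with Benjamini-Hochberg adjustment, threshold 0.05). These regions had to pass the score cut in every list, which limits how far they can differ. Tags were summed over each library's own called peaks, so the test cannot separate tags from peak length. Tags were higher in enterocytes at 4 regions (0.0136%) and higher at E14.5 at 0 (0%), while 2600 regions had an unadjusted p under 0.05. DESeq2 called 227 and 11, and limma on tags per kb called 0 in both directions. Without E14.5 replicate 1, and likewise without replicate 2, no region passed. In simulated data, all 100 regions with a planted 4-fold change were recovered and 33 of 100 with a 2-fold change, beside 3 false calls.

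The leading region, on chromosome 11 at 53278127 to 53281044, held 235 and 252 tags in enterocytes and 40 and 37 at E14.5, a log2 fold change of 2.24 (SE 0.289, edgeR adjusted p = 0.0228). The groups did not overlap, and neither did the called lengths, at 2892 and 2821 bp in enterocytes and 462 and 380 bp at E14.5. The fold enrichment went the other way, at 7.23 and 7.83 at E14.5 and at most 3.93 in enterocytes. The other 3 were on chromosome 1 at 39988189 to 39990905 (log2 fold change 2.13), on chromosome 2 at 101794665 to 101797725 (2.04) and on chromosome 9 at 106580714 to 106584550 (1.98). Divided by called length, the sign turned, with log2 fold changes of −0.56, −0.64, −0.70 and −0.63 for these 4 regions. The median of all shared regions was −0.72 on that scale. The 4 regions lay 0.16, 0.07, 0.01 and 0.08 above it, so their group ratio of tags per kb was near that of shared regions in general. With regions built from the full lists, that on chromosome 2 had a log2 fold change of 0.21.

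Tag counts moved with the length of the called peak across all shared regions. The median called length was 1113 and 921 bp in enterocytes and 764 and 489 bp at E14.5, and E14.5 replicate 2 had the shortest peak in 95.3% of the regions. Across the regions, which are not independent replicates and share the 4 libraries, the log2 ratio of tags correlated with the log2 ratio of lengths at r = 0.88. Among the 2072 regions whose called lengths differed by less than 1.5 times, 0 were higher in enterocytes and 6 at E14.5.

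Toward E14.5 the 3 regions of lowest p did not pass the threshold with edgeR, and passed it with DESeq2. That on chromosome 10 at 80068659 to 80070628 held 103 and 121 tags in enterocytes and 214 and 248 at E14.5 (log2 fold change −1.48, SE 0.286, edgeR adjusted p = 0.101). The region on chromosome 1 at 87548049 to 87548962 held 61 and 47 tags in enterocytes and 111 and 100 at E14.5 (log2 fold change −1.38, edgeR adjusted p = 0.107). Both also passed among regions with called lengths within 1.5 times, and the first with the replicate number as a block. Over the alternatives the adjusted p ran from 1.67e-12 to 0.660 for the first and from 1.28e-05 to 0.506 for the second. In the second region the called lengths were alike, 870 and 690 bp against 793 and 587 bp, and the fold enrichment was 7.10 and 6.45 against 17.85 and 17.87. In the other region named above, on chromosome 10, fold enrichment was 6.03 and 5.97 at E14.5 against 5.48 and 5.17 in enterocytes. In the third, on chromosome 7 at 107298221 to 107299661, it was 6.06 and 7.04 against 4.40 and 6.49. Fold ran higher at E14.5 over the shared regions in general. With each library's median log2 fold over those regions subtracted, the differences on chromosomes 10 and 7 were 0.34 and 0.22, on the side of enterocytes. The region on chromosome 1 stayed on the side of E14.5, at −0.89.

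**Figure D5:**
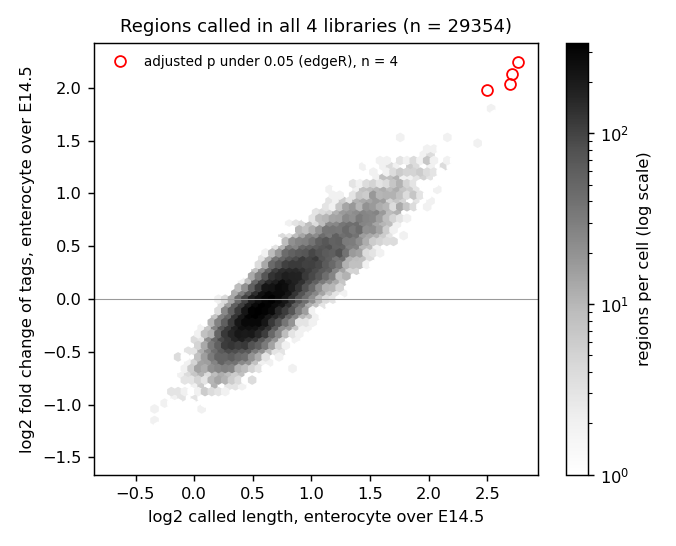
Log2 fold change of tags, enterocytes over E14.5 (y axis), against the log2 ratio of called peak lengths (x axis) for the 29354 regions called in all 4 libraries, shaded by the number of regions per cell (log scale). Circles are the 4 regions with an edgeR adjusted p under 0.05, which lie at the far end of the length ratios.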

How the data were processed

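MBD-sequencing peak lists of 8 libraries, 1 list each, were used. The build was mm9 and the tools were Bowtie 1.1.2, SAMtools 1.2 and bcl2fastq 1.8.4, per the submitters' processing notes. Methylated fragments of 150 to 250 bp were captured with a MethylMiner kit, per the labels' protocols. Peaks were called with MACS 1.4.2, without a control library, at a p-value cutoff of 1e-05, per the file headers. Deposited per peak are tag counts (raw), a score (from the log10 of the p-value) and a fold, the ratio to local background, all as the authors' caller gave them.

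Peaks on X, Y and the mitochondrial genome were left out. Lists were cut by score to 84990 peaks and merged at 1 bp. Each region was then looked up in the full lists. Tags of a region are the sum over its peaks, and RPM divides by the tags in the file header. Named regions were the 8 per direction, without a peak in the full lists of the other group, ranked by the lower score percentile of the 2 libraries. For tag counts, they were the 5 of largest change under an adjusted p of 0.05 with groups that do not overlap, or, as here, the 3 of lowest p where fewer passed. A further 4 presence regions per direction and 1 shared region were added after their values were seen. Members and lists were chosen with earlier results of these data known.

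Shared regions were tested with edgeR 4.0.16 (quasi-likelihood, TMM), with limma 3.58.1 and DESeq2 1.42.0 as alternatives. P-values weigh the difference between groups against the spread between these libraries, 2 per group. The number of animals behind each library is not given. Both the merging and the test were checked on simulated data. Other list lengths, rankings, presence rules, merging distances, fits and leaving out each replicate were tried. Gene lists and promoters were not analysed here, since the reference tables were of another build. Python 3.11.15 and R 4.3.3 were used.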

Additional observations from a re-analysis of the deposited data

Results flagged for a closer look

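Peaks on chromosomes X and Y and on the mitochondrial genome were not part of the comparison and are given as a signal in data left out of it. Enterocyte replicates 1 and 2 had 275 and 472 such peaks, among 164157 and 232179 in all. E14.5 replicates 1 and 2 had 3690 and 1299, among 317772 and 338262. Most were on X, with 259 and 448 in enterocytes and 3669 and 1258 at E14.5. The ISC lists had 227 and 693 peaks on X and the E12.5 lists 174 and 166. The enterocytes came from males, and the sex of the embryos is not given in the sources used here.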

How the results depend on the processing

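The count of enterocyte-only regions was 6033 with full lists, 6212 with 50000 peaks per list, 18293 where peaks cover at least 50% of the region, 968 with no peak allowed in the full lists of the other group, and 15525 to 24400 when 1 library was left out. E14.5-only regions numbered 47061, 4585, 6588, 1294 and 11928 to 28110 in the same order. The enterocyte share of the separating regions was 11.4%, 57.5%, 73.5%, 42.8% and 40.3% to 66.1%, and 57.5% with lists ranked by fold, 51.3% with intervals of 100 bp either side of summits and 55.4% with peaks resized to 1 width (chosen after seeing the data). It crossed 50% with full lists, with no peak allowed in the other group and without either E14.5 library. Both ISC lists held 37.9% (full lists), 27.6% (50000 peaks) and 23.6% (by fold) of enterocyte-only regions. That share was 22.3% (summits), 23.9% (50% cover) and 16.2% to 41.5% (1 library left out). For E14.5-only regions it was 16.6% (full lists), 12.4% (by fold), 4.17% (no peak in the other group) and 7.74% to 25.6% (1 left out). In each setting the ISC lists were treated as the other lists were. The 4.17% thus refers to equal ISC lists, and the full ISC lists gave 31.4% for the same regions.

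For regions without a peak in the other group, these settings were chosen after seeing the data. The ISC and E12.5 shares of this paragraph refer to the full lists. With 50000 peaks, 350 enterocyte-only and 372 E14.5-only regions remained, of which 80.3% and 28.5% were in both ISC lists and 8% and 75.5% in an E12.5 list. Ranked by fold, there were 3816 E14.5-only regions, with ISC shares of 48.8% and 24.8% and 28.2% of the E14.5-only ones in an E12.5 list. With 1 library left out, they numbered 2332 to 3482 and 2466 to 7686, with ISC shares of 42.1% to 70.3% and 25.7% to 58.8% and E12.5 shares of 16.4% to 40.9% and 30.5% to 56.4%. Of the 12 regions per direction named or listed, 6 and 4 stayed group-specific when lists were ranked by fold and 7 and 8 with summit intervals.

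Shared regions higher in enterocytes numbered 227 with DESeq2 (adjusted p missing for 11951), 0 with limma on tags per kb, with library sizes of the file headers, with regions of the full lists, with lengths within 1.5 times and with ISC in the fit, 2 with limma on fold enrichment (chosen after seeing the data) and 0 to 7 with 1 library left out. Higher at E14.5 were 11 with DESeq2 and 6 with lengths within 1.5 times. Limma on tags per kb moved the median of all regions by −0.72 and header library sizes by 0.15 (log2). On tags per kb the 4 called regions had log2 values of −0.56, −0.64, −0.70 and −0.63. On fold enrichment, with each library's median log2 fold over shared regions subtracted, they had −0.53, −0.47, 0.05 and −0.15. The first 2 regions toward E14.5 had 0.34 and 0.22 on that scale. Without the subtraction, fold was lower in both enterocyte libraries than in both E14.5 libraries at all 4 called regions. The causes were not tested.

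With the replicate number as a block, 46 shared regions were higher in enterocytes and 2 at E14.5. The labels do not say that numbers pair samples, and deviations of same-numbered libraries correlated at 0.0235. Depth limits low tag counts, and with 2 libraries a group a 2-fold change was mostly missed in simulated data.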
